A study of Capra hircus with 9 samples.

Results

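The miR-135 family of the goat mammary gland was followed across late lactation (LL), the dry period (DP) and late gestation (LG). Its members were taken by name, as every row of the deposited count table that begins with chi-miR-135a or chi-miR-135b, which gave 3 of the 1359 listed miRNAs: chi-miR-135a, chi-miR-135b-5p and chi-miR-135b-3p. The family was singled out, and so chosen by measured values, for the high level of chi-miR-135a in LL, and the differences between LL and the other stages are therefore given as a description without a test. Only DP vs. LG, which leaves LL out, was tested. Of the 3 members, 1 (chi-miR-135a) passed the filter on low counts, and the level that is high in LL is that of this member alone.

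The 9 small RNA libraries came from the mammary gland of 9 Laoshan dairy goats of 1 farm, with no treatment named besides the stage and all in the third parity and about 4 years old. Each stage had 3 goats and 1 library per goat: LL at 240 days postpartum, DP at 300 days postpartum and LG at 140 days after mating. Each goat was sampled at 1 stage only, so the stages differ by animal as well as by time. The tissue is a mixture of cells, and in such bulk samples fewer cells of a type and less RNA per cell cannot be told apart.

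A microRNA (miRNA) is a small RNA that pairs with messenger RNAs, mostly through its seed near the 5′ end, and lowers their translation or stability. miR-135a and miR-135b come from separate genes, have nearly identical mature sequences and the same seed, and are therefore thought to share most of their targets. Known targets in other work include APC, a brake on Wnt signalling, and PRLR, the prolactin receptor, which carries the main hormonal signal for milk synthesis and was studied as a miR-135a target in goat mammary epithelial cells. The levels of such targets were not analysed here.

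In the goat reference annotation (ARS1.2), the gene of chi-miR-135a lies on chromosome 22 from 48686064 to 48686153. It overlaps no other annotated gene and ends 694 bases before GLYCTK, which encodes glycerate kinase. The gene of chi-miR-135b lies on chromosome 16 from 2601167 to 2601271, between LEMD1 and CDK18 and likewise outside any other annotated gene. No other miRNA gene is annotated within 10 kb of either. The nearest to chi-miR-135a is that of chi-let-7g, 37874 bases away. It falls outside the distance set for naming neighbours and was looked up after the values of chi-miR-135a were known.

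The total count of a library ranged from 16451436 to 24616668 in LL, from 13672653 to 23392916 in DP and from 21301913 to 34378995 in LG. Levels are counts per 1000000 counts (CPM) after TMM scaling, which sets the libraries on a common scale from the bulk of the miRNAs, unless said otherwise. The scaling matters in this series because chi-miR-148a-3p, the most abundant miRNA, took 48.4% to 59.4% of the counts in LL, 39.4% to 44.6% in LG and 8.81% to 10.8% in DP.

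chi-miR-135a was high in LL and low in both other stages. In LL its count was 2396, 2511 and 1475 in replicates 1, 2 and 3, which corresponds to 188, 166 and 79.6 CPM. In DP the counts were 286, 318 and 316, or 18.0, 14.6 and 13.8 CPM. In LG they were 449, 361 and 355, or 15.4, 14.3 and 8.04 CPM. Every LL library thus lay above every library of DP and LG, while the libraries of DP and LG overlapped. The lowest LL library was 4.43 times the highest library of the other stages, and 2.86 times by library size only.

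By stage, the level of chi-miR-135a was 144.5 ± 57.3 CPM (SD, n = 3) in LL, 15.4 ± 2.21 CPM (SD, n = 3) in DP and 12.6 ± 3.96 CPM (SD, n = 3) in LG. LL was also the stage with the widest spread. LL replicate 3 stood below the others, and LL replicates 1 and 2 were 2.36 and 2.08 times its level. Counting error alone gives a coefficient of variation of 2.00% to 2.60% in an LL library and of 4.72% to 5.91% in a DP or LG library, against 39.6% between goats in LL, 14.3% in DP and 31.5% in LG. The percentages for single libraries cover counting error only.

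**Figure D1:**
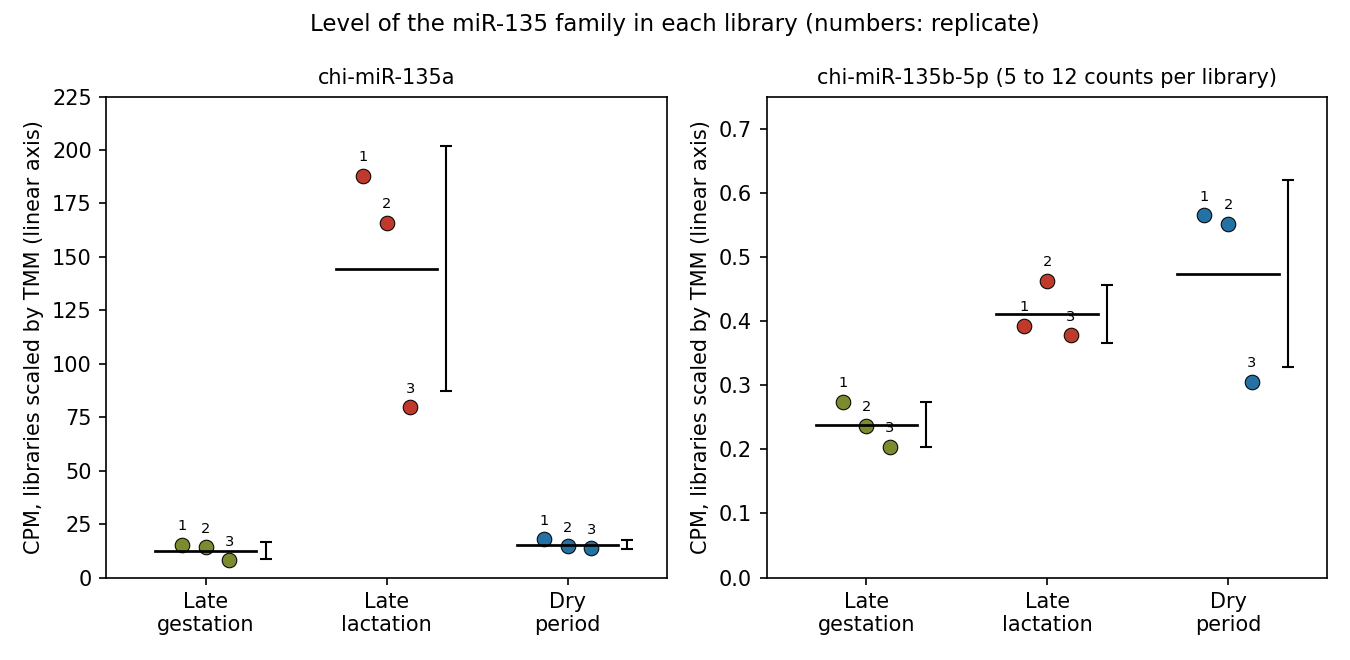
Level of chi-miR-135a (left) and chi-miR-135b-5p (right) in CPM in each library, with the replicate number above each point, the stage mean as a line and the SD as an error bar (n = 3). chi-miR-135a reached 79.6 to 188 CPM in LL and stayed at or below 18.0 CPM in LG and DP, whereas chi-miR-135b-5p was below 0.6 CPM in every library.

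Ranked by count among the 1359 listed miRNAs, chi-miR-135a stood between ranks 118 and 163 in the LL libraries, between 252.5 (a tie) and 271 in DP and between 241 and 312 in LG. This rank is taken within a library and does not depend on the scaling between libraries. It placed the miRNA among those of moderate abundance in LL and further down in the stages without milking.

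In DP vs. LL the log2 fold change of chi-miR-135a was −3.23 (SE 0.39), which is a level 9.35 times higher in LL. In LL vs. LG it was 3.52 (SE 0.40), or 11.5 times higher in LL. Of the 696 tested miRNAs, 16 had a more negative log2 fold change than chi-miR-135a in DP vs. LL, and 9 had a larger one in LL vs. LG. Both comparisons use the same LL libraries. With the limits of adjusted p < 0.05 and |log2 fold change| > 1 for a call, 11.6% of the 696 miRNAs were called lower in DP than in LL, 8.91% were called higher in LL than in LG, and 2.87% were called in both. With library size only as the scaling, the calls of LL vs. LG were 30 higher and 90 lower in place of 62 and 27, and those of DP vs. LL were 165 higher and 59 lower in place of 105 and 81. For 10.5% of the 696 every LL library lay above every DP and LG library. chi-miR-135a is among these miRNAs by the way it was chosen.

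**Figure D2:**
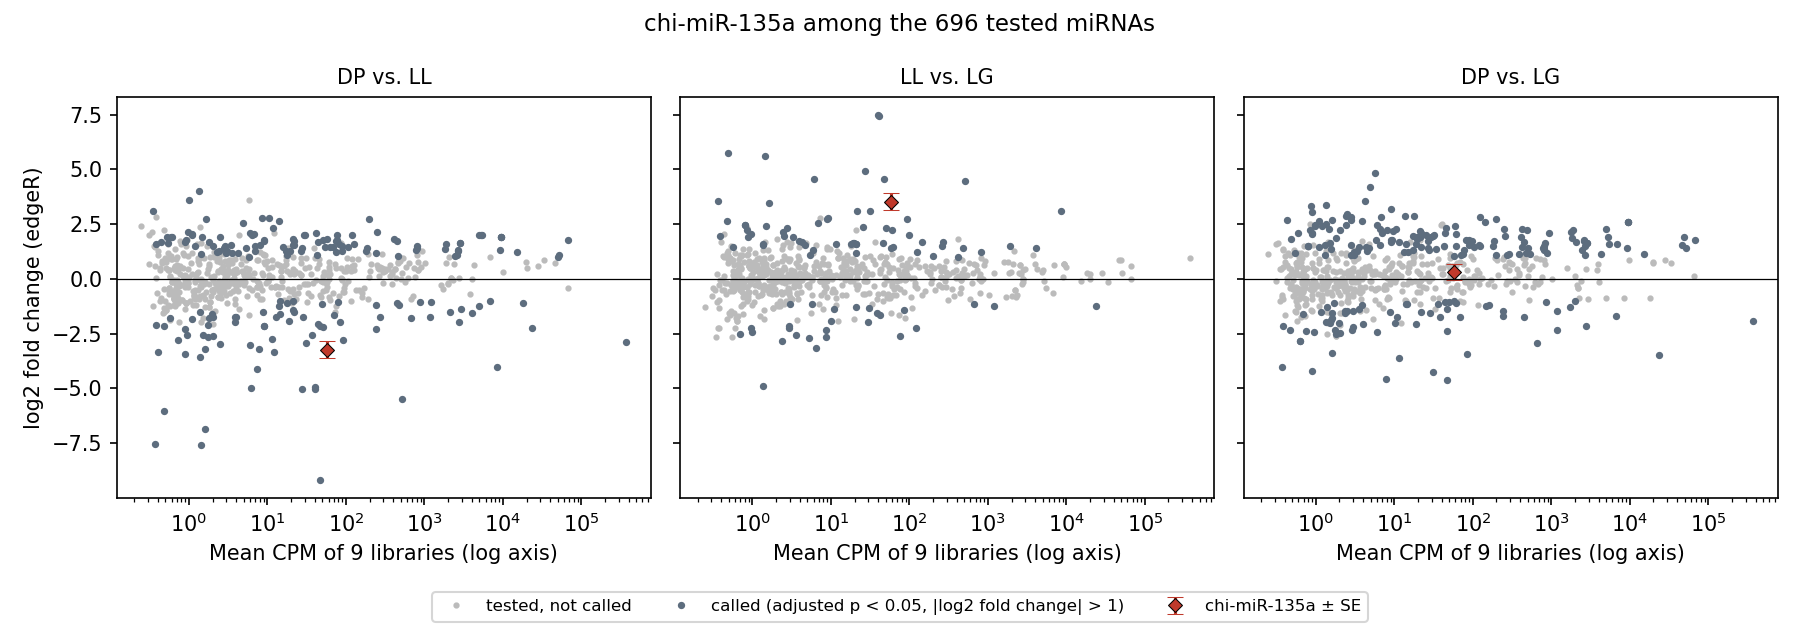
log2 fold change from edgeR against mean CPM (log axis) for the 696 tested miRNAs in DP vs. LL, LL vs. LG and DP vs. LG, with the called miRNAs in dark grey and chi-miR-135a as a red diamond with its SE. chi-miR-135a lay far from 0 in both comparisons with LL, at −3.23 and 3.52, and close to 0 in DP vs. LG, at 0.30.

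The size of these differences moved with the scaling. Over the 5 scalings the log2 fold change of chi-miR-135a ranged from −3.36 to −2.86 in DP vs. LL and from 2.97 to 3.52 in LL vs. LG, with the smallest differences for library size only. The median log2 fold change of all tested miRNAs moved as well, from 0.03 to 0.49 in DP vs. LL and from −0.42 to 0.17 in LL vs. LG. With each library left out in turn the value of chi-miR-135a ranged from −3.57 to −2.92 in DP vs. LL and from 3.06 to 3.70 in LL vs. LG. The largest differences were those without LL replicate 3, the LL library with the lowest level, and the smallest those without LL replicate 1.

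DP vs. LG is the comparison that the choice of the family did not use. It asks whether the level after milking stopped differed from that shortly before the next lactation. The log2 fold change of chi-miR-135a was 0.30 (SE 0.36) with a 95% interval from −0.51 to 1.104 and an adjusted p of 0.593 in edgeR's quasi-likelihood test. No difference beyond the spread of the libraries was found, and the interval still allows a level up to about 1 log2 unit higher in DP. In the same comparison 31.5% of the 696 tested miRNAs were called in either direction. The sign was not stable. It was negative in 5 of the 19 alternative fits, among them the fits without DP replicate 1 and without LG replicate 3, and the log2 fold change ranged from −0.13 to 0.36 over all 19, with adjusted p-values of 0.369 to 0.984. The order of the stages was therefore LL above DP and LG, with no order between DP and LG.

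**Figure D3:**
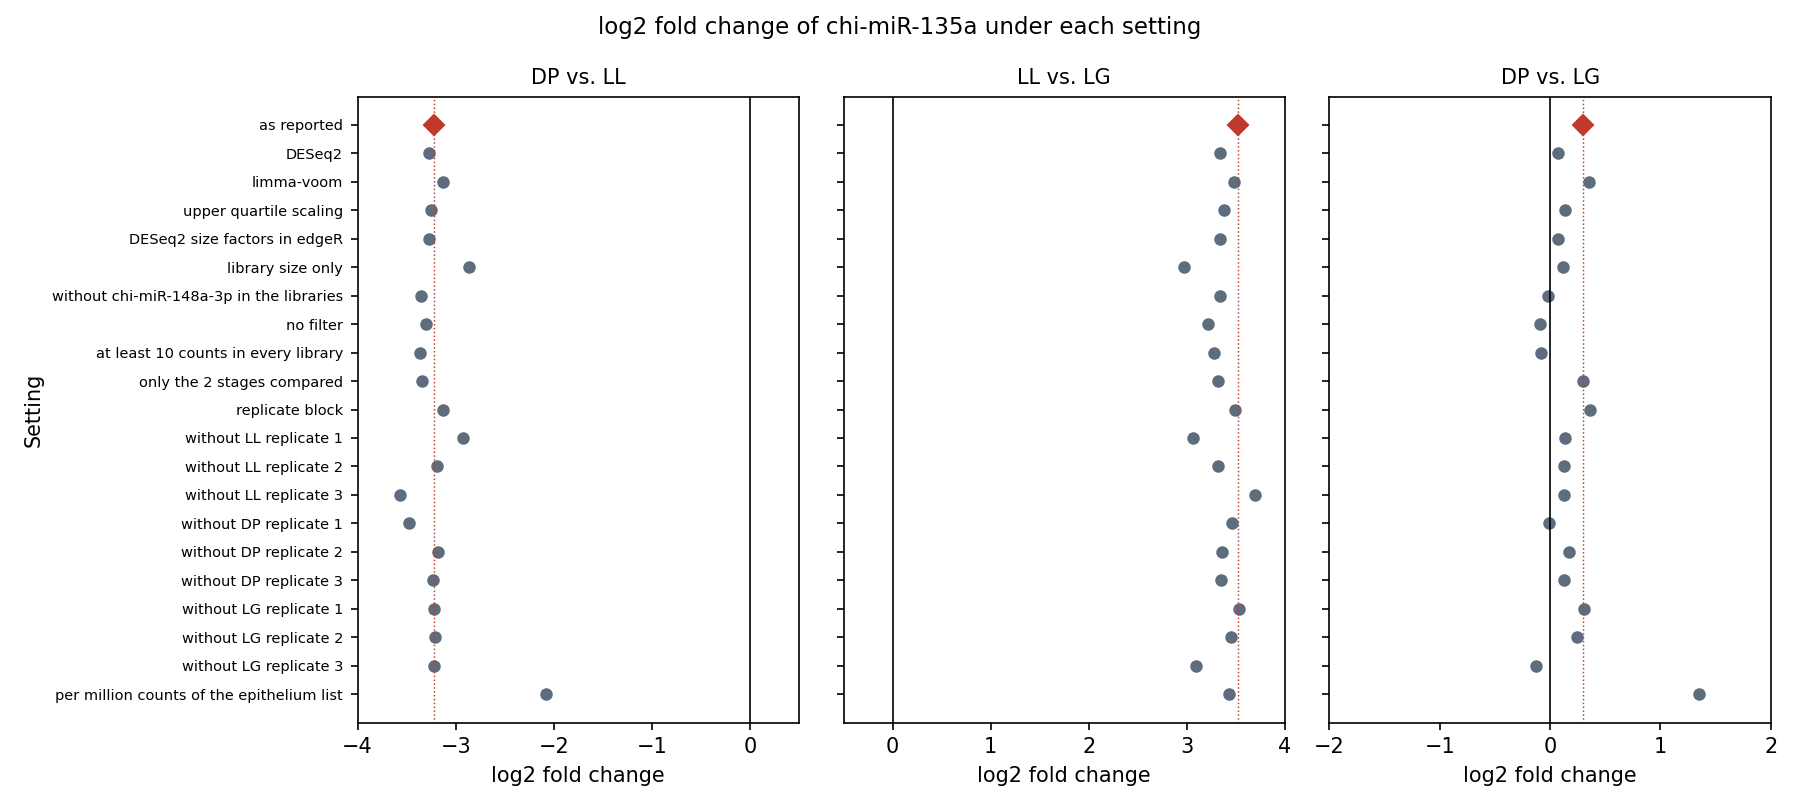
log2 fold change of chi-miR-135a in DP vs. LL, LL vs. LG and DP vs. LG (x axes) as reported (red diamond) and under each alternative setting (grey points). The values of both comparisons with LL stayed far from 0, whereas those of DP vs. LG lay on both sides of 0, between −0.13 and 0.36, apart from the ratio to the epithelium list in the bottom row.

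The values of the other family member were very low. chi-miR-135b-5p had 5, 7 and 7 counts in LL, 9, 12 and 7 in DP and 8, 6 and 9 in LG. It did not reach 0.5 CPM in 3 libraries and so was not tested. The libraries of all stages overlapped in their counts and in their CPM by library size, whereas after TMM scaling every LG library lay below those of LL and DP. Summed over the 3 libraries of a stage and divided by their total, the level was 0.327 CPM in LL with an exact 95% Poisson interval of 0.197 to 0.510, 0.471 CPM (0.313 to 0.680) in DP and 0.284 CPM (0.180 to 0.425) in LG. The intervals cover counting error only, and they overlap. For DP vs. LG the exact permutation test of the CPM by library size gave p = 0.2 (two-sided, n = 3 per stage), where 0.1 is the smallest value that 3 against 3 libraries allow. After TMM scaling the levels were 0.305 to 0.565 CPM in DP and 0.204 to 0.274 CPM in LG, and the exact permutation test, added for this scale after the data had been seen, gave that smallest value, p = 0.1.

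chi-miR-135b-3p, from the other arm of the chi-miR-135b hairpin, had 1 count in LG replicate 1 and 0 counts in the other 8 libraries. A count of 0 allows a level of up to 0.0873 to 0.219 CPM by library size, depending on the library. The 3p arm of chi-miR-135b was thus at or below the limit of detection in each stage.

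Because the mature sequences of chi-miR-135a and chi-miR-135b-5p are nearly identical, reads of one could have been counted on the other, and their values are uncertain to that extent. Per 1000 counts of chi-miR-135a, chi-miR-135b-5p had 2.09 to 4.75 counts in LL, 22.2 to 37.7 in DP and 16.6 to 25.4 in LG. The count of chi-miR-135b-5p was 5 to 7 in the LL libraries, in which chi-miR-135a was high, and 6 to 12 in the others. No listed miRNA had counts equal to those of chi-miR-135a in all libraries.

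chi-let-7g-5p, from the nearest annotated miRNA gene, followed another course. Its level was 25239 ± 1173 CPM (SD, n = 3) in LL, 38350 ± 6630 CPM in DP and 21258 ± 2596 CPM in LG, with the highest mean in DP. Its log2 CPM had a Pearson r of −0.07 with that of chi-miR-135a over the 9 libraries.

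Milk-secreting epithelium is lost or remodelled when milking stops, so the level of chi-miR-135a was set beside that of miRNAs typical of epithelium. Of the epithelium list (the miR-200 family, miR-141, miR-429, the cluster of chi-miR-183, chi-miR-96 and chi-miR-182, miR-203, miR-205 and miR-375), 8 miRNAs were in the table and all 8 were tested. Their summed level was 35325 to 43018 CPM in LL, 34932 to 38643 CPM in LG and 14060 to 22385 CPM in DP. In DP vs. LL, 5 of the 8 were called lower, against 11.6% of all tested miRNAs, and 1, chi-miR-183, was called higher in DP, with a median log2 fold change of −1.05 against 0.12 over all tested miRNAs. chi-miR-182 and chi-miR-96 of the same cluster were not called, with log2 fold changes of 0.71 and 0.59. With library size only as the scaling, the 5 calls were lost, while 8.48% of all tested miRNAs were called lower in DP, and the median was −0.66 against 0.49. In LL vs. LG 0 of the 8 were called by edgeR, DESeq2 or limma-voom, 2 had an unadjusted p under 0.05 in edgeR, and the median was −0.28 against 0.17. With library size only, 2 were called lower in LL than in LG, against 12.9% of all tested miRNAs at that scaling. The most abundant, chi-miR-200b, had 23642 ± 2726 CPM (SD, n = 3) in LL, 19738 ± 812 CPM in LG and 10916 ± 2794 CPM in DP. By library size only, the summed level of the list was 26586 to 39582 CPM in LL, 41532 to 48712 CPM in LG and 14375 to 26084 CPM in DP, so that the LL and LG libraries overlapped after TMM scaling and did not overlap by library size. The part of the epithelium in the level of chi-miR-135a was not tested.

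Relative to the epithelium list, the stages no longer overlapped at all. chi-miR-135a had 5015, 3856 and 2254 counts per 1000000 counts of the list in LL, 802, 732 and 980 in DP, and 399, 408 and 212 in LG. DP lay above LG by 1.35 on the log2 scale (exact permutation test, two-sided, p = 0.1, the smallest that 3 against 3 libraries can give), while per 1000000 counts of the library the 2 stages overlapped. This ratio was chosen after the data had been seen. It moves with the epithelium list, of which 3 of 8 miRNAs (chi-miR-141, chi-miR-200a and chi-miR-429) were called lower in DP than in LG, against 9.91% of all tested miRNAs. With library size only, 5 of the 8 were called lower, against 12.2% of all tested miRNAs, and the other scalings and DESeq2 also gave 5, while limma-voom gave 3. The cluster of chi-miR-183, chi-miR-96 and chi-miR-182 went the other way. With TMM scaling its log2 fold changes in DP vs. LG were 0.89, 0.27 and 0.95, and none was called. Most of the list's counts were of chi-miR-200a, chi-miR-200b and chi-miR-200c, so the ratio mainly follows these.

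Relative to chi-miR-148a-3p, which is abundant in lactating glands and milk, the picture differed again. Per 1000000 counts of chi-miR-148a-3p, chi-miR-135a had 236, 315 and 113 counts in LL, 193, 148 and 160 in DP and 40.6, 38.0 and 26.2 in LG. The LL and DP libraries overlapped on this scale, and all LG libraries lay below both. chi-miR-148a-3p and chi-miR-135a were thus both lower in DP than in LL. In LG chi-miR-148a-3p was at 353744 ± 40661 CPM (SD, n = 3) against 676430 ± 137872 CPM in LL, a smaller difference than that of chi-miR-135a.

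**Figure D4:**
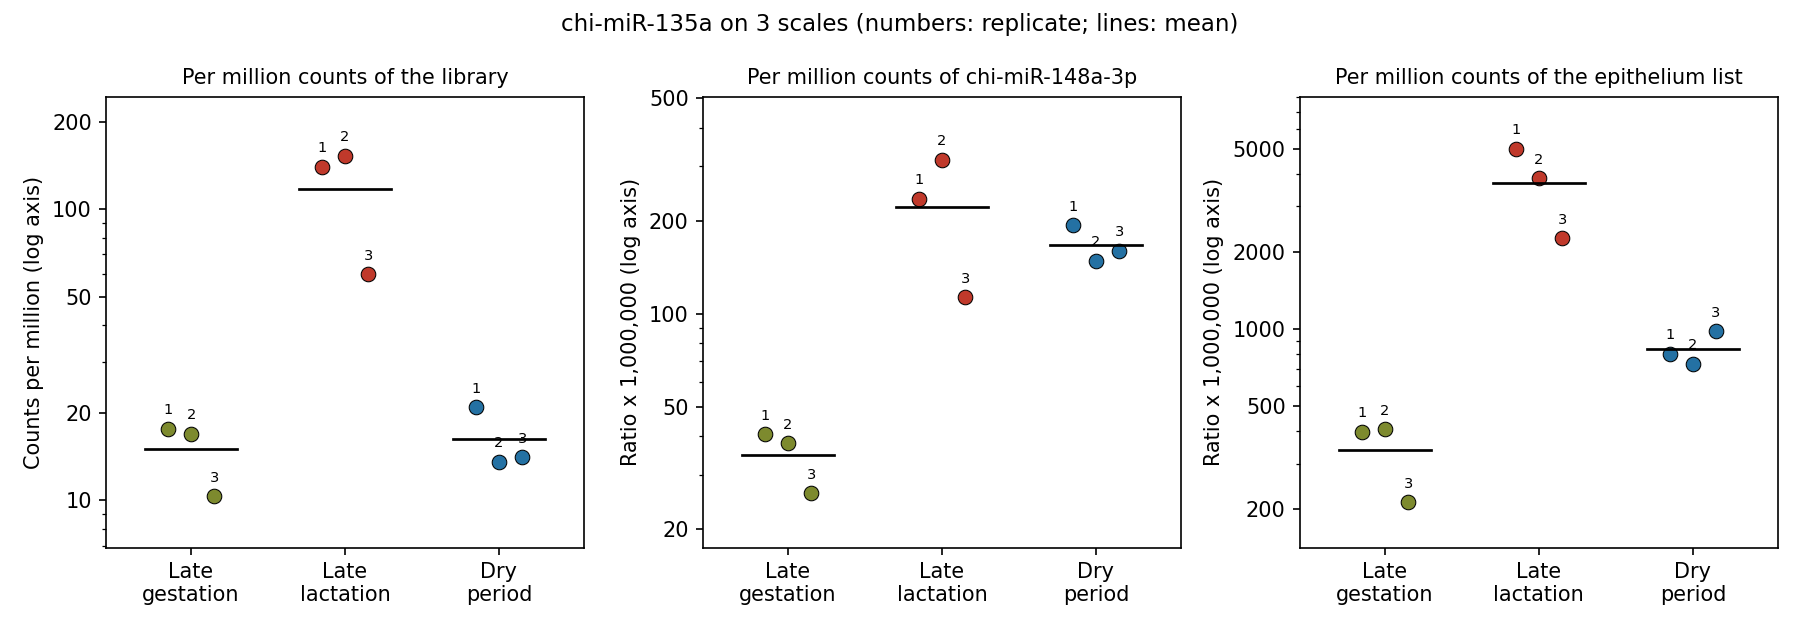
chi-miR-135a in each library on log axes, as counts per 1000000 counts of the library (left), of chi-miR-148a-3p (middle) and of the epithelium list (right), with replicate numbers at the points and the stage mean as a line. LG was lowest on the middle scale (26.2 to 40.6) and on the right scale (212 to 408), LL and DP overlapped only on the middle scale, and DP and LG overlapped only on the left scale.

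miRNAs of other cell types also changed between the stages, and their part in the level of chi-miR-135a was not tested. Of the 7 tested miRNAs of the immune cell list, 5 were called higher in LL than in LG, against 8.91% of all tested miRNAs, with a median log2 fold change of 2.74 against 0.17 over all tested miRNAs. With library size only as the scaling, 4 were called higher in LL, against 4.31% of all tested miRNAs, and the median was 2.21 against −0.42. In DP vs. LL 1 was called higher and 2 lower in DP, against 15.1% and 11.6% of all tested miRNAs. The summed level was 8361 to 31563 CPM in LL, 2212 to 3925 CPM in DP and 1263 to 5617 CPM in LG. By library size only, it was 6292 to 26468 CPM in LL and 1621 to 6437 CPM in LG, so that these stages overlapped. In LL and LG most of the list's mean sum was chi-miR-146b-5p, with 21580 and 2483 CPM against 1347 CPM in DP, a miRNA induced by inflammatory signalling and also found in epithelial cells. Its 2 arms were the 2 miRNAs called lower in DP. Among the others of the list, chi-miR-150 of lymphocytes was 117 ± 30.5 CPM (SD, n = 3) in LL, 524 ± 342 CPM in DP and 110 ± 4.03 CPM in LG, and chi-miR-223-3p of myeloid cells was 59.7 ± 45.4, 28.6 ± 15.2 and 7.06 ± 3.34 CPM.

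Of the stroma list (miR-143, miR-145, miR-199 and miR-214), 6 of 10 tested miRNAs were called higher in DP than in LL, against 15.1% of all tested miRNAs, and 1 of 10 was called higher in LL than in LG, near the 8.91% of all tested miRNAs. The 6 called higher in DP than in LL were all of miR-199 and miR-214. No member of miR-143 or miR-145 was called there, with log2 fold changes from −0.71 to 0.61. The most abundant of the list, chi-miR-143-3p, had −0.43. chi-miR-199a-3p and chi-miR-199b-3p had nearly equal levels, 5274 and 5270 CPM in LL. Their calls, here and in DP vs. LG, are therefore not separate measurements. In LL vs. LG the median log2 fold change of the stroma list was 0.60 against 0.17 over all tested miRNAs, and 0.0091 against −0.42 with library size only. The muscle list had 1 of 6 tested miRNAs called higher in DP than in LL, and the neuron list had 1 of 6 called higher in LL than in LG. The shares over all tested miRNAs in these directions were 15.1% and 8.91%. In each of the other comparisons of LL with the muscle, blood, endothelium and neuron lists 0 were called by edgeR with TMM scaling. With library size only as the scaling, 3 of 6 of the neuron list and 2 of 6 of the muscle list were called higher in DP than in LL, against 23.7% of all tested miRNAs at that scaling, and 0 of the neuron list were called in LL vs. LG. With TMM scaling, of the 6 tested miRNAs of the muscle list 2 had an unadjusted p under 0.05 in LL vs. LG, as did 2 of 3 of the blood list and 1 of 2 of the endothelium list. In DP vs. LL 3 of 6 of the neuron list had one, and 0 of the blood and endothelium lists. DESeq2 and limma-voom likewise called 0 in these comparisons, except for 1 miRNA of the blood list that DESeq2 called higher in LL than in LG. In DP vs. LG, in which chi-miR-135a was not called, 7 of 10 of the stroma list and 5 of 7 of the immune cell list were called higher in DP, against 21.6% of all tested miRNAs, with median log2 fold changes of 1.68 and 2.02 against 0.18 over all tested miRNAs. By library size only, 7 and 4 were called higher, against 16.7% of all tested miRNAs. With TMM scaling, 2 of 6 each of the muscle and neuron lists were called higher in DP than in LG, against 21.6% of all tested miRNAs. So were 1 of 3 of the blood list and 1 of 2 of the endothelium list. The endothelium call was lost with each of the other scalings and with DESeq2, and the blood call with limma-voom. The neuron list was included because miR-135a is also known from the brain. chi-miR-124a, its defining member, was at 0 counts in all 9 libraries.

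A mean of 10 CPM or more was reached by 304 tested miRNAs. When these were ordered by the smaller of the log2 fold changes of LL over DP and LL over LG, chi-miR-135a stood at place 6, and at place 1 of the 230 known ones. The order uses the LL levels by which the family was chosen, so this place is a description only. Without the limit of 10 CPM, 10 tested miRNAs stood above chi-miR-135a. Just above chi-miR-135a were the predicted miRNAs NC_030833.1_31828, with log2 fold changes of LL over DP and over LG of 9.16 and 4.56, and NC_030809.1_1929, with 5.47 and 4.49. NC_030833.1_31828 passed the limit only through LL, with 0.254 ± 0.324 CPM (SD, n = 3) in DP and 5.69 ± 4.16 CPM in LG. Its level in DP was near the limit of detection, so the size of the 9.16 is uncertain. Just below were both arms of chi-miR-146b, chi-miR-146b-5p with 4.0 and 3.12 and chi-miR-146b-3p with 2.78 and 2.74. The smaller values of chi-miR-135a and chi-miR-146b-5p, 3.23 and 3.12, differed by less than the SE of 0.39, so that their order is not set by these data. The other known miRNAs called higher in LL than in both DP and LG were chi-miR-146b-5p, chi-miR-146b-3p, chi-miR-335-3p, chi-miR-323a-3p, chi-miR-107-3p and chi-miR-103-3p.

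The miRNAs whose course was most like that of chi-miR-135a were found by the Pearson r of log2 CPM over the 9 libraries, among the 303 others of that abundance. The correlations are given as a description, since all of them rest on the same libraries and mainly on the gap between LL and the rest. The highest were NC_030829.1_28533 (r = 0.96), chi-miR-146b-5p (0.95), chi-miR-146b-3p (0.94), NC_030809.1_1929 (0.94), chi-miR-107-3p (0.93) and chi-miR-103-3p (0.93). NC_030829.1_28533 reached the mean of 10 CPM only through LL, where it had 76.9 ± 5.87 CPM (SD, n = 3). Its highest level was 3.26 CPM in a DP library and 3.51 CPM in an LG library. It was compared only because of its level in LL, so its place is not independent of that level. The median over all 303 was 0.05. The lowest were chi-miR-106b-5p (−0.95), chi-miR-130b-5p (−0.93) and NC_030828.1_27139 (−0.90). chi-miR-106b-5p, of the miR-17 family linked to cell proliferation, had 65.8 ± 6.82 CPM (SD, n = 3) in LL, 128.9 ± 8.99 CPM in DP and 118 ± 23.0 CPM in LG.

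**Figure D5:**
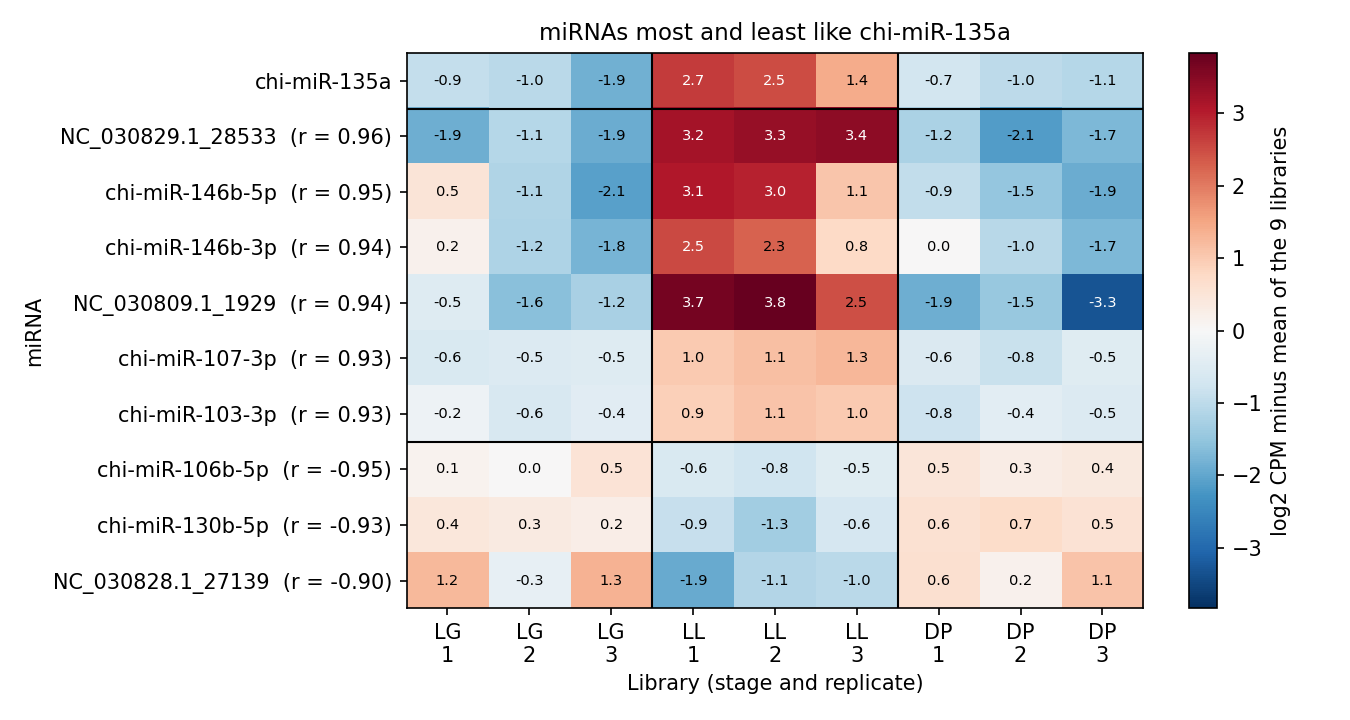
log2 CPM minus its mean over the 9 libraries (colour and printed value) for chi-miR-135a in the top row, the 6 miRNAs with the highest and the 3 with the lowest Pearson r to it. Both chi-miR-146b arms were lower in LL replicate 3 than in the other LL libraries, as chi-miR-135a was (1.4 against 2.5 and 2.7), while chi-miR-103-3p and chi-miR-107-3p were not.

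Within the stages the alike miRNAs parted. chi-miR-146b-5p had 29924, 27465 and 7350 CPM in LL replicates 1, 2 and 3, so that LL replicate 3 was low in it as in chi-miR-135a, and in LG both miRNAs were highest in replicate 1 (5007 CPM for chi-miR-146b-5p and 15.4 CPM for chi-miR-135a) and lowest in replicate 3 (838 and 8.04 CPM). In DP both were also highest in replicate 1 (1842 and 18.0 CPM) and lowest in replicate 3 (941 and 13.8 CPM). Both levels thus fell from replicate 1 to replicate 3 in every stage, and the cause of this order was not tested. With the stage means taken out, the correlation with chi-miR-135a was 0.91 for chi-miR-146b-5p and 0.86 for chi-miR-146b-3p. chi-miR-107-3p had 453, 505 and 557 CPM in LL, and chi-miR-103-3p 6729, 7623 and 7155 CPM, both with LL replicate 3 within or above the others. Their correlations without the stage means were −0.49 and −0.09. For the predicted NC_030829.1_28533, the miRNA most like chi-miR-135a over all libraries, it was 0.19, and for NC_030809.1_1929 it was 0.57. These rest on 3 deviations in each of 3 stages.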

How the data were processed

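Small RNA libraries of 3 goats per stage (LL, DP, LG) were used. The authors deposited counts of reads per mature miRNA, without normalization. Per the paper's methods, reads were checked with FastQC and trimmed with Trimmomatic, aligned to the goat genome (ARS1.2) and quantified with miRDeep2 over known (miRBase) and predicted miRNAs. The submitters' processing notes also name cutadapt 4.2 and Bowtie 1.1.1. In LL replicate 3 the deposited values of 2 predicted miRNAs are not whole, so this column was treated as one of expected counts and rounded.

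The members and the lists were chosen with earlier results of these data known. The 696 of 1359 miRNAs that reached 0.5 CPM in 3 or more libraries were fitted with edgeR 4.0.16 in R 4.3.3 (TMM, glmQLFit, glmQLFTest) in 1 model of the 9 libraries, with no covariate beside the stage. DE-miRNAs (called) had a Benjamini-Hochberg adjusted p under 0.05 over all tested miRNAs and |log2 fold change| > 1. The SE is the absolute log2 fold change divided by the square root of F. Log2 CPM used a prior count of 2. As alternatives, DESeq2 1.42.0 and limma-voom (version 3.58.1 of limma) replaced edgeR, and scaling, filter, the stages in the fit, a replicate block and leaving out single libraries were varied. The script was tested on simulated data. Exact permutation tests used scipy 1.17.1. Named besides the members were the miRNAs most and least like chi-miR-135a, its neighbours in the order of rise in LL and in the genome, chi-miR-148a-3p and the list members. A search for shared seeds was not made, because mature sequences were not used here. p-values measure the spread between these 9 goats.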

Additional observations from a re-analysis of the deposited data

How the results depend on the processing

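The log2 fold change of chi-miR-135a, whose direction the choice of the family fixes, was −3.57 to −2.86 in DP vs. LL and 2.97 to 3.70 in LL vs. LG over the 19 alternatives. The value that moved by more than the spread between replicates was 2.97 for LL vs. LG with library size only. Per 1000000 counts of the epithelium list, a ratio added after the data were seen, it was −2.08 in DP vs. LL and 1.35 in DP vs. LG, and the cause was not tested. DP vs. LG, called in none of the 19 fits, changed sign to −0.018 without chi-miR-148a-3p in the libraries, −0.089 with no filter and −0.086 with at least 10 counts in every library, and ranged from −0.13 to 0.31 with each library left out. With no filter, chi-miR-135b-5p had a log2 fold change of 0.60 in DP vs. LG (edgeR, adjusted p = 0.466). The chi-miR-135b arms had too few counts for a value under the other settings. In LL vs. LG 12.8% of the tested miRNAs were called (62 higher and 27 lower). The share was 21.1% (68 higher and 73 lower) with only the 2 stages compared and 4.79% to 18.2% with single libraries left out. Leaving out LL replicate 1 or 2 gave 33 or 36 called miRNAs, and leaving out LG replicate 1 or 3 gave 54 or 41. In these 4 fits 20 to 30 miRNAs were called higher in LL, and 40 and 32 without LL replicate 3 and LG replicate 2. In DP vs. LL the 105 called higher fell to 61 and 64 without LL replicates 1 and 2, and in DP vs. LG the 69 called lower became 114 without DP replicate 1 and the 150 called higher fell to 87 to 95 without any 1 of the LG libraries. With the size factors of DESeq2 they were 96 and 123. Each library came from another goat, so the replicate numbers do not mark the same animal. Same-numbered libraries deviated together with r from −0.10 to 0.21, and r was over 0.1 in 3 of 9 such pairs. In both other stages, 4 of the 9 libraries correlated best with the library of their own number. What same-numbered libraries have in common was not tested. A replicate block gave 0.36 for chi-miR-135a in DP vs. LG and 88 DE-miRNAs in LL vs. LG, and the former was again not called. Depth limits what can be said of chi-miR-135b, with at most 12 counts in a library.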
